A study of Homo sapiens with 40 samples.

Results

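The regions described here were called CTCF peaks found in SETDB1 knockout cells at places with no control peak and without H3K4me3, the histone mark of active promoters. A member had to be a CTCF peak of the knockout list on chromosomes 1 to 22 or X that shared not even 1 bp with a control CTCF peak or with a knockout H3K4me3 peak. The rule gave 17103 members, which were 49.7% of the 34419 CTCF peaks of the knockout list on these chromosomes and 81.0% of the 21122 that lacked a control peak. The CTCF lists of both genotypes and the knockout H3K4me3 list chose the members, so CTCF calls, peak width and H3K4me3 at these places are given as a description. New means not called in control: the lists hold no score or depth and differ in their smallest peak, and the part of calling settings or depth in which peaks are new was not tested.

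CTCF is a zinc finger protein that binds DNA and, by stalling the cohesin complex as it extrudes loops, helps to set the edges of topologically associating domains (TADs), stretches of chromatin that contact themselves more than their neighbours. Many of its sites lie away from promoters, inside introns or between genes, and methylation of the DNA can keep CTCF off part of its motifs. SETDB1 is a methyltransferase that places H3K9me3, a mark of silent chromatin, often over repeat elements. At the scale of whole chromosomes chromatin separates into an active A and an inactive B compartment, which Hi-C reads from contact patterns.

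The study used the human lung adenocarcinoma cell line A549 throughout. Control A549 cells were compared with SETDB1 knockout cells made by CRISPR/Cas9, the guide RNA being delivered on a plasmid. Whether the knockout cells were 1 clone or a pool is not given in the sources used here, and no other treatment or time point is named. For each genotype there were 2 ChIP-seq libraries of each of CTCF, H3K9me3, H3K27me3 (the Polycomb mark), H3K27ac (active enhancers and promoters) and H3K4me3, 2 Hi-C libraries and 3 RNA-seq libraries, part of a series of 40 samples that also held inputs. Nothing in the labels says that replicates came from separate cultures, so tests measure the spread between libraries, which may be technical.

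The peak and TAD lists held positions only and 1 list per mark and genotype, so a share of peaks has no replicate error and no read depth behind it. Shares are given with 95% Wilson intervals and differences with 95% Newcombe intervals, and both cover counting error only. RNA-seq libraries held 18065062 to 48364919 counts. The targeted transcript SETDB1 was at 37.5, 39.6 and 38.7 CPM (counts scaled to library size) in the control libraries and 23.4, 21.2 and 21.1 CPM in the knockout (KO) libraries, so transcript remained in the knockout. In bulk libraries, fewer cells with a transcript and less of it per cell cannot be told apart. Its log2 fold change was -0.82 (SE 0.060, adjusted p 1.7e-12 in edgeR's quasi-likelihood test). All 8 epithelial and A549 markers examined were present at 3.75 CPM or more in every library, and their levels differed between genotypes. KRT8, KRT18, EPCAM and CDH1 rose by 1.54, 1.73, 1.41 and 0.95 on the log2 scale (edgeR adjusted p at most 1.4e-12), ALDH1A1 and ALDH3A1 rose by 0.37 and 0.26 (at most 4.6e-06), and AKR1B10 and AKR1C2 fell by 0.87 and 1.12 (at most 4.6e-17). Of the leukocyte, endothelial and fibroblast markers, 6 are reported; PTPRC, CD3E, COL1A2 and DCN had 0 or 1 count in any library, COL1A1 reached 4.10 CPM, and the endothelial CDH5 went from 0.29 ± 0.083 to 4.53 ± 0.67 CPM (SD, n = 3), with no overlap between genotypes. The part of cells with other markers in the results below was not tested.

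The members were compared mainly with the 8304 KO CTCF peaks that also lay away from KO H3K4me3 but overlapped a control CTCF peak, called shared peaks below. A second comparison set was the 10261 control CTCF peaks with no KO CTCF peak and no KO H3K4me3 peak, called control-only peaks. Both comparison sets obeyed the same H3K4me3 rule as the members. For position in the genome the background was the length of 26496 bins of 100 kb with a Hi-C compartment value in every library, outside KO H3K4me3 peaks. Of the members, 16686 had their midpoint in such a bin and 417 did not.

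The new peaks were narrow. Their median width was 258 bp, with a quartile range of 226 to 308 bp, against a median of 344 bp (quartiles 282 and 413) for shared peaks and 228 bp (200 and 273) for control-only peaks. A width of 400 bp or more was reached by 7.30% of members and by 28.8% of shared peaks. The narrowest width in the KO list was 202 bp and in the control list 182 bp, so the lists differ in their smallest call and widths of KO and control peaks are set side by side only. The 4019 new peaks at KO H3K4me3 were also narrower, at a median of 273 bp, than the 4993 shared peaks at H3K4me3, at 373 bp. Thus peaks with a control partner were wider both near and away from H3K4me3.

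**Figure D1:**
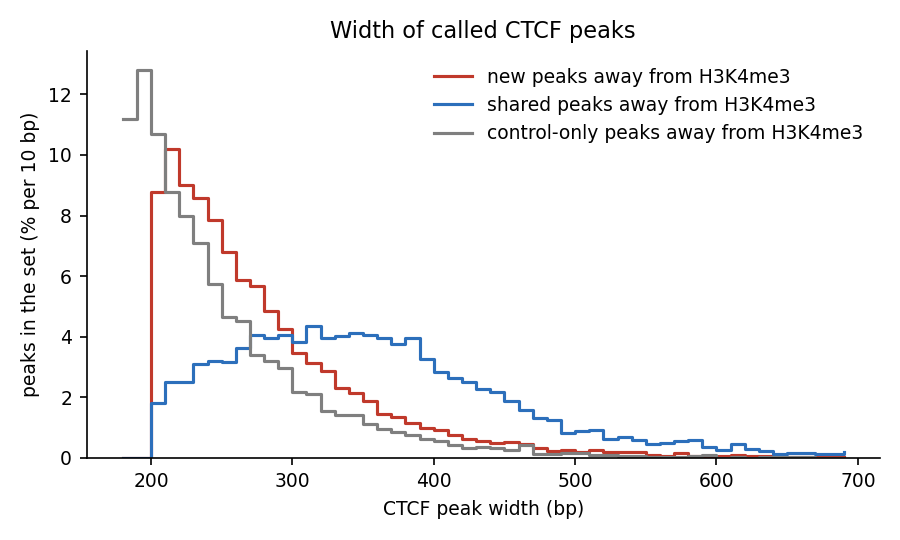
Width of called CTCF peaks in bp (horizontal) against the percent of each set per 10 bp of width (vertical), for the 17103 new, 8304 shared and 10261 control-only peaks away from KO H3K4me3. New and control-only peaks pile up close to the smallest width of their list, and shared peaks spread around a median of 344 bp.

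Few members sat at the border of the rule. None touched a control CTCF peak, 19 lay within 100 bp of one and 370 within 1 kb, and the median distance to the nearest control CTCF peak was 32.3 kb. Just outside the rule, 50 KO CTCF peaks away from H3K4me3 were left out for an overlap of at most 100 bp with a control CTCF peak. On the H3K4me3 side, 56 members lay within 100 bp and 580 within 1 kb of a KO H3K4me3 peak, while 382 new peaks were left out for an overlap of at most 100 bp. The median member lay 19.9 kb from KO H3K4me3. A control H3K4me3 peak was overlapped by 429 members (2.51%, 2.28 to 2.75), less often than by shared peaks (645, 7.77%) and more often than by control-only peaks (51, 0.50%).

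The 5 widest members differed in their surroundings. The widest, at chr14:107147518-107148590, spanned 1073 bp, lay wholly inside control H3K9me3 and not in KO H3K9me3, and its bin was B in every Hi-C library, at -1.25 and -1.31 in control and -0.92 and -1.05 in KO. The second, chr7:1597352-1598401 (1050 bp), lay in an A bin 1.15 kb from a control CTCF peak and 0.80 kb from KO H3K4me3. The member at chr12:94875640-94876567 (928 bp) was covered by H3K27me3 in both genotypes. The last of these, chr17:47856454-47857349 (896 bp) and chr17:76794591-76795482 (892 bp), lay in A bins, the former with 210 bp of KO H3K27me3 and the latter with 772 bp of control H3K27ac that was not called in KO. Only chr17:76794591-76795482 of these 5 lay within 20 kb of a KO TAD edge. No gene annotation of the build was used, so genes around these regions are not named.

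Over all chromosomes the share of members in the A compartment was near the share of length, unlike that of shared peaks, but it differed between chromosomes, as given below for 2 groups of them. A bins (positive compartment signal) of control cells held 54.7% of the members, where they held 54.0% of the length. Of shared peaks 77.9% lay in control A bins, a difference of -23.2 percentage points (-24.38 to -22.02). Control-only peaks lay in A bins in 31.0% of cases. On single chromosomes the share in A was lower for members than for shared peaks on 22 of 23.

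The density of members was almost level over 3 of the 4 compartment classes. It was 6.62 per Mb in bins that were A in both genotypes, 7.0 per Mb in bins going from A to B and 6.84 per Mb in bins that stayed B. Bins going from B to A held fewer, 3.88 per Mb. Shared peaks went from 4.74 per Mb in bins that stayed A to 1.59 per Mb in bins that stayed B, with 3.3 in bins that turned to B and 1.04 in those that turned to A. Members therefore outnumbered shared peaks in each class, by the widest margin in ratio in B bins, where 6974 members faced 1622 shared peaks.

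H3K9me3 of control cells covered 18.2% (17.6 to 18.8) of the members at 1 bp or more, against 5.52% (5.04 to 6.03) of shared peaks. The difference was 12.7 points (11.9 to 13.5), and members were higher on 23 of 23 chromosomes. By midpoint, which does not grow with peak width, 16.7% of binned members lay in control H3K9me3, a mark that covered 12.7% of the length. Members were thus more frequent in H3K9me3 than shared peaks were, and over all bins also above the share of length. Control-only peaks went further in the same direction, with 26.9% (26.1 to 27.8) at 1 bp. In control A bins members were not above the length. Control H3K9me3 held 9.75% (9.12 to 10.4) of them on 9.97% of the length in bins that stayed A. In bins going from A to B it held 12.1% (10.3 to 14.2) on 12.7%.

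More members lay in H3K9me3 of KO than of control, and the KO mark also covered more of the length (24.2% against 12.7%). KO H3K9me3 overlapped 27.5% (26.8 to 28.1) of members and 3.64% (3.26 to 4.06) of shared peaks. Members were split into 1553 (9.08%) with the mark in control only, 3133 (18.3%) in KO only, 1563 (9.14%) in both and 10854 (63.5%) in neither. New CTCF peaks with H3K9me3 in control only were fewer than those with it in KO only, and the lengths of these classes differed likewise. By midpoint, 8.0% lay in control-only H3K9me3 that made up 7.70% of the length, and 18.9% in KO-only H3K9me3 that made up 19.2% of it. Places with the mark in both genotypes held 8.70% (8.28 to 9.14) of members on 5.00% of the length, the H3K9me3 class whose interval lay above its share of length.

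In bins that stayed B, most members lay in KO H3K9me3 and most shared peaks did not. It held the midpoints of 63.2% (62.0 to 64.3) of these members and covered 56.8% of the length there, but held only 17.8% (16.03 to 19.76) of shared peaks. Control H3K9me3 held 24.4% (23.4 to 25.4) of them on 15.3% of the length, against 10.2% of shared peaks. In bins that stayed A, KO H3K9me3 was rare and held 0.82% of members on 1.04% of the length. In bins going from B to A, control H3K9me3 held 29.2% (25.7 to 33.1) of the 578 members there on 17.3% of the length, against 12.3% (7.99 to 18.4) of 155 shared peaks.

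H3K27me3 was more frequent at members than at shared peaks, but over all chromosomes close to its share of the genome. In control it overlapped 14.4% (13.8 to 14.9) of members and 5.79% (5.31 to 6.32) of shared peaks, a difference of 8.56 points (7.83 to 9.28) with members higher on 22 of 23 chromosomes. By midpoint 13.5% of members lay in it, and it covered 14.1% of the length. In KO the shares were 10.8% and 6.98% (difference 3.86 points, 3.13 to 4.57), and by midpoint 9.75% of members on 10.7% of the length. A switch from control H3K27me3 without H3K9me3 to KO H3K9me3 without H3K27me3 was seen at 663 members (3.88%, 3.597 to 4.176), at 26 shared peaks (0.31%) and at 425 control-only peaks (4.14%).

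H3K27ac was found at few members. In KO it overlapped 618 of them (3.61%, 3.34 to 3.90) and 7.29% (6.75 to 7.86) of shared peaks, a difference of -3.67 points (-4.31 to -3.06). In control the shares were 4.27% and 9.62%. By midpoint 2.40% of members lay in KO H3K27ac and 3.21% in control H3K27ac, above the 1.84% and 1.90% of length that the mark covered. Members with the mark only in KO numbered 233 (1.36%) and those with it only in control 345 (2.02%). For shared peaks these counts were 204 (2.46%) and 398 (4.79%). Because H3K27ac often accompanies H3K4me3, the rule itself lowers all of these shares, in members and shared peaks alike. It removed KO H3K4me3 and not control H3K4me3, so the KO-only counts can be lowered more. The KO-only and control-only counts therefore do not compare the genotypes. The median distance to KO H3K27ac was 35.7 kb for members and 15.6 kb for shared peaks.

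None of the 3 marks was called at 8579 members (50.2%, 49.4 to 50.9) in either genotype. The share was 73.0% (72.0 to 74.0) for shared and 32.6% (31.7 to 33.5) for control-only peaks. For each mark, for the A compartment and for distance to TAD edges the value of the members lay between those of shared and control-only peaks, and for H3K27me3 it was near that of control-only peaks.

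**Figure D2:**
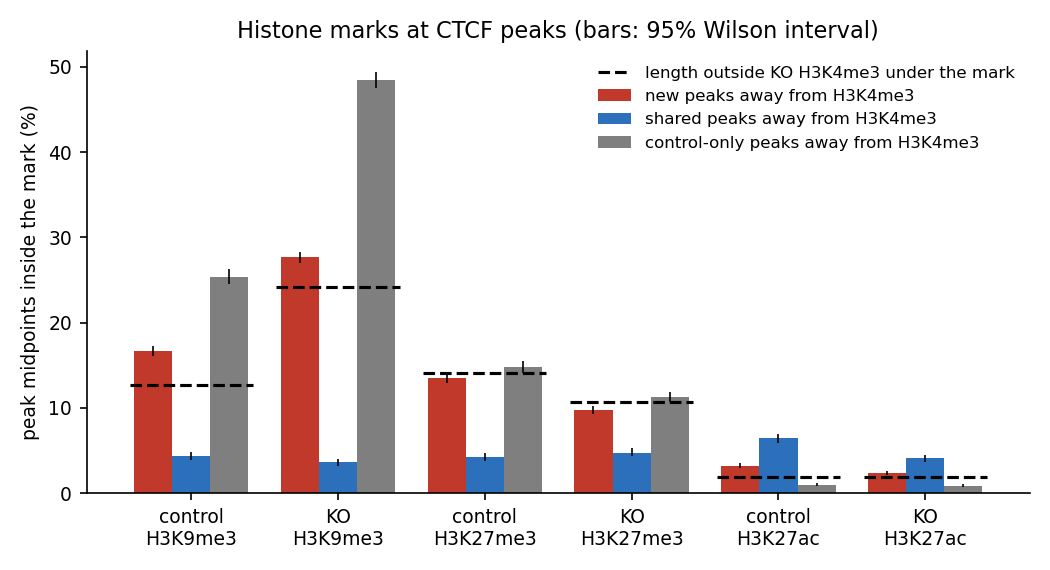
Percent of CTCF peak midpoints (vertical) inside control and KO H3K9me3, H3K27me3 and H3K27ac peaks (horizontal), for binned new, shared and control-only peaks away from KO H3K4me3, with 95% Wilson intervals as error bars and the share of length under each mark as a dashed line. New peaks are at 27.6% in KO H3K9me3 against 24.2% of length and 3.62% of shared peaks, and shared peaks are below the length in every methylation mark.

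TAD edges had more members near them than the length alone, but fewer than shared peaks. Within 20 kb of a KO edge lay 16.5% (15.9 to 17.0) of the members and 30.5% (29.5 to 31.5) of shared peaks, a difference of -14.0 points (-15.2 to -12.9), with members lower on 23 of 23 chromosomes. Of binned members 16.4% lay there, on 9.67% of the length. Control edges gave 15.8% for members. The median distance to a KO edge was 93.1 kb for members, 42.3 kb for shared and 169 kb for control-only peaks.

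The density of members fell with distance from an edge and then levelled. It was 11.1 per Mb within 20 kb of a KO edge, 8.46 from 20 to 40 kb, 6.75 from 40 to 60 kb and 5.24 from 200 to 500 kb. Shared peaks fell from 10.0 to 0.98 per Mb over the same range, whereas control-only peaks were at 3.54 next to the edge and 4.53 at 200 to 500 kb. Close to edges members and shared peaks were thus present at like densities, and far from edges members were the more common. Members near edges were found in every compartment class, at 21.6% of those in bins that stayed A (12.9% of the length) and 9.48% of those in bins that stayed B (5.69% of the length).

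**Figure D3:**
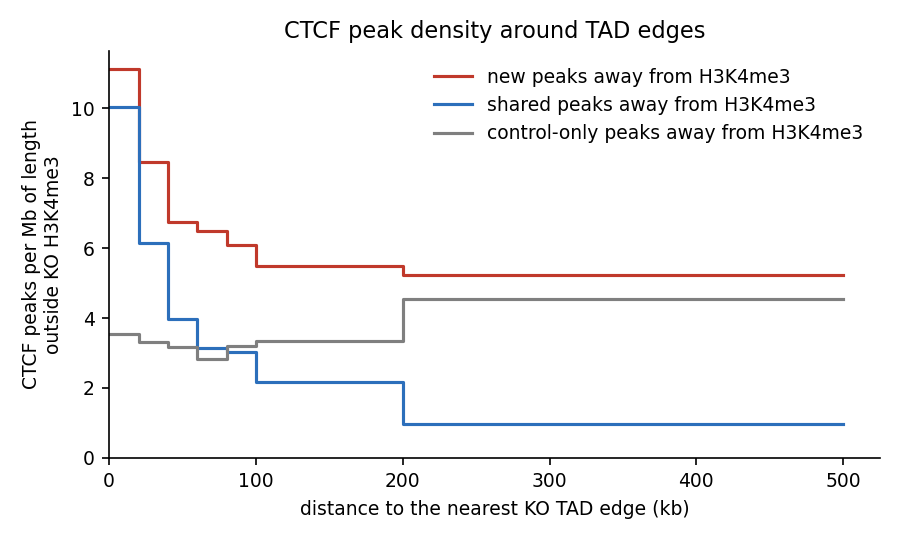
CTCF peaks per Mb of length outside KO H3K4me3 (vertical) by distance to the nearest KO TAD edge in kb (horizontal), for new, shared and control-only peaks. Densities of new and shared peaks are 11.1 and 10.0 per Mb within 20 kb of an edge and 5.24 and 0.98 per Mb from 200 to 500 kb.

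For edges called only in KO, no difference in the share with a member was detectable at these numbers. Of 536 KO edges with no control edge within 20 kb, 33.4% (29.5 to 37.5) had a member within 20 kb. Of 6669 KO edges with a control edge the share was 32.8% (31.7 to 34.0), and the difference was 0.57 points (-3.45 to 4.82). Shared peaks did differ, at 12.9% of KO-only edges and 29.5% of the others, a difference of -16.6 points (-19.4 to -13.3). A member with no other KO CTCF peak within 20 kb was found at 131 KO-only edges (24.4%) and at 1040 of the other edges (15.6%).

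The members were unevenly spread over chromosomes. They were densest on chromosomes 19 (14.6 per Mb of bins), 15 (11.8) and 17 (11.8), and sparsest on chromosomes 13 (2.2), X (2.37) and 21 (2.57), against 6.57 per Mb over all bins. Over 23 chromosomes their density followed that of control-only peaks (Pearson r 0.82, Spearman rho 0.75) and of shared peaks (0.80 and 0.77), values that share libraries, genome composition and copy number and are given as a description. Chromosomes 13, X and 21 were sparse in control-only peaks too (0.42, 0.44 and 0.32 per Mb). Other chromosomes departed from this relation. Chromosome 2 had 7.71 control-only peaks and 4.49 members per Mb. Chromosome 22 had 0.44 control-only peaks, 4.63 members and 6.03 shared peaks per Mb, where shared peaks were at 3.17 per Mb over all bins. A copy number difference between chromosomes was not tested.

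On 7 chromosomes (4, 6, 13, 18, 21, 22 and X) control-only peaks were below 1 per Mb, at most 0.58, while each of the other 16 had at least 2.27. This split was made after the values were seen. On the 7 chromosomes 5.31% (4.40 to 6.40) of 1958 binned members had their midpoint in KO H3K9me3, although the mark covered 22.4% of the length there. On the other 16 the share was 30.6% (29.9 to 31.4) of 14728 members, on 24.8% of the length. Chromosome 22 had no member in KO H3K9me3 among 142, where the mark covered only 5.02% of the length. On chromosome 21 6.25% of members were in a mark that covered 39.3% of the length. Control H3K9me3 held 7.66% (6.56 to 8.92) of members on 7.23% of the length of the 7 chromosomes. On the other 16 it held 17.9% (17.3 to 18.5) on 14.7% of the length. Control H3K27me3 held 4.09% (3.3 to 5.06) of members on 10.0% of the length of the 7 chromosomes, and 14.7% (14.1 to 15.3) on 15.6% of the length of the other 16. Control A bins held 73.4% (71.4 to 75.3) of members on 53.8% of the length of the 7, and 52.3% (51.5 to 53.1) on 54.1% of that of the 16. Members of the 7 were also more often within 20 kb of a KO TAD edge, 23.9% against 15.4%. The share of members in KO H3K9me3 was therefore above the share of length over the 16 chromosomes and below it on the 7. Shared peaks of the 7 chromosomes lay in KO H3K9me3 in 0.30% (0.10 to 0.89) of cases, below the members there too.

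**Figure D4:**
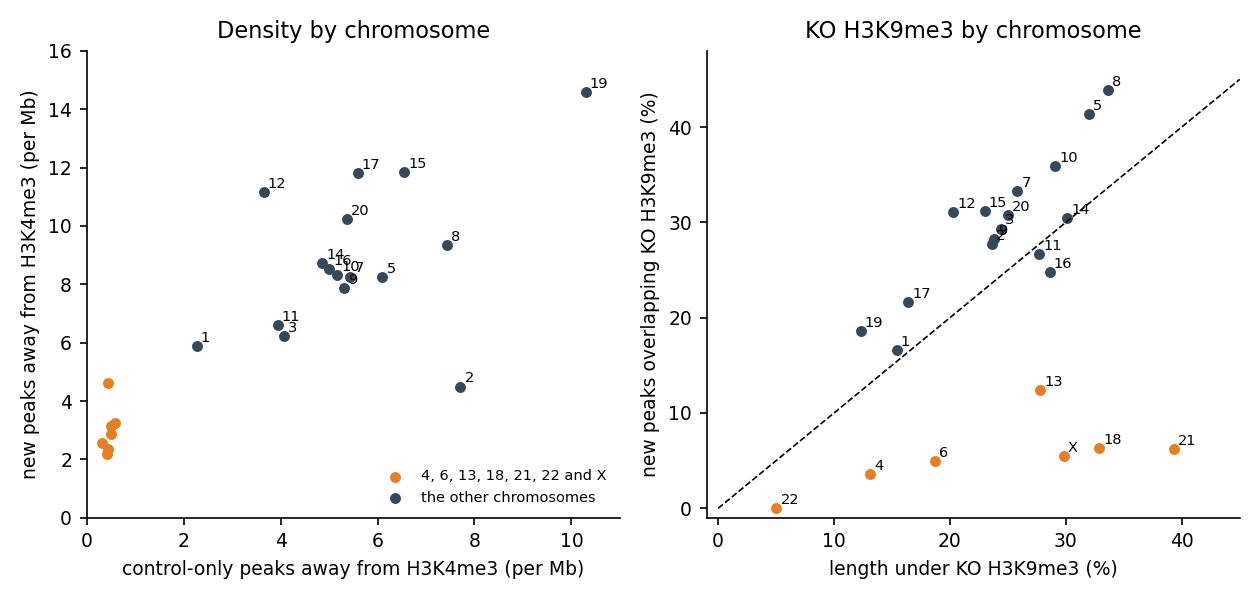
Left, new against control-only CTCF peaks away from KO H3K4me3 per Mb by chromosome. Right, percent of new peaks overlapping KO H3K9me3 against the percent of length under KO H3K9me3, with the line of equality dashed. Orange points are chromosomes 4, 6, 13, 18, 21, 22 and X, which lie low in both panels and below the line.

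Among the members, these features changed little with width. From the narrowest to the widest quartile of members the share in control A bins went from 52.2% to 56.8%, and the share in KO H3K9me3 from 30.0% to 25.4%. The share in control H3K9me3 went from 17.0% to 20.1%. Shared peaks cut at the same widths changed more. Their share in control A bins went from 61.9% (57.5 to 66.1) in the narrowest class to 82.1% (81.0 to 83.1) in the widest. In KO H3K9me3 it went from 12.6% (10.0 to 15.8) to 1.84% (1.52 to 2.24). The gap between members and shared peaks was therefore smaller among narrow peaks, though members stayed lower in A and higher in KO H3K9me3 in both classes.

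Members were found in 11207 of the 26496 bins (42.3%), and 331 bins held 4 or more. The bin with most, chr19:42100001-42200000, held 8 members among 13 KO CTCF peaks, and 7 of the 8 lay in H3K27me3 of both genotypes. The next 4 by the naming rule, from 6 bins with 7 members each, showed other surroundings. In chr12:5900001-6000000 no control CTCF peak was present, and all 7 members (231 to 676 bp) lay in control H3K27me3 and in KO H3K9me3, with 0 in KO H3K27me3. In chr12:55500001-55600000, again with no control CTCF peak, 5 of 7 lay in KO H3K9me3. In chr17:49900001-50000000 all 7 lay in KO H3K9me3 and 0 in control H3K9me3, and in chr15:79300001-79400000 none lay in H3K9me3 of either genotype. H3K27ac was called at no member of these 5 bins.

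The compartment signal of these 5 bins was lower in KO than in control in each KO library. In chr12:5900001-6000000 it was -0.30 and -0.34 in control and -0.97 and -0.94 in KO, a difference of -0.63 (limma adjusted p 6.6e-07). In chr12:55500001-55600000 it was -0.66 and -0.56 in control and -1.03 and -1.0 in KO (limma adjusted p 2.9e-05). In chr15:79300001-79400000 it went from 0.12 and 0.075, in A, to -0.17 and -0.20, in B (limma adjusted p 0.00020). The bins on chromosomes 19 and 17 differed by -0.20 and -0.18 (limma adjusted p 0.0050 and 0.0038). The genotypes overlapped in none of the 5. How many of all bins lacked overlap was not counted, and limma called 37.3% of all 26496 bins as lower in KO. The lack of overlap alone therefore says little about bins rich in members.

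Over all bins with members the share called by limma was near that of the genome. Of the 11207 bins, 6464 (57.7%) passed an adjusted p of 0.05, against a background of 58.8% of all bins. A lower signal in KO was called in 4386 (39.1%; background 37.3%) and a higher one in 2078 (18.5%; background 21.6%). With 2 or more members in the bin 42.7% were lower and 14.4% higher, on the same backgrounds. With 4 or more, a limit chosen after the values were seen, 187 of 331 (56.5%) were lower and 33 (9.97%) higher. These groups also differed in compartment. Control A bins made up 59.7% of bins with 1 member, 52.7% of those with 2 or more and 33.6% of those with exactly 4. The part of compartment in the rise with member number was not tested. Of control A bins with members 33.4% were lower (background 32.9%) and 15.2% higher (background 17.1%). In control B bins 69.8% of those with members were called, against 69.7% of all control B bins, with 46.8% lower (background 42.6%) and 23.02% higher (background 27.1%).

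Per library, the mean signal of bins with members was 0.116 and 0.119 in control and 0.0564 and 0.0555 in KO. The genotypes did not overlap, and the difference was -0.0614, where all bins had -0.0377 and bins with no member -0.0204. An exact permutation test over the 4 libraries (two-sided) gave p = 0.333, the smallest it can give. In bins with 2 or more members the difference was -0.0946, and with 4 or more it was -0.173, from -0.245 and -0.241 to -0.419 and -0.415. In control B bins the mean with members went from -0.586 to -0.638, and without members from -0.569 to -0.543. The opposite direction of the latter is that of the mean only: the median difference was -0.091 in control B bins with members and -0.050 in those without, and of those without members 2813 (39.8%) were called lower and 2111 (29.9%) higher. In control A bins the differences with and without members were -0.0683 and -0.0606.

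**Figure D5:**
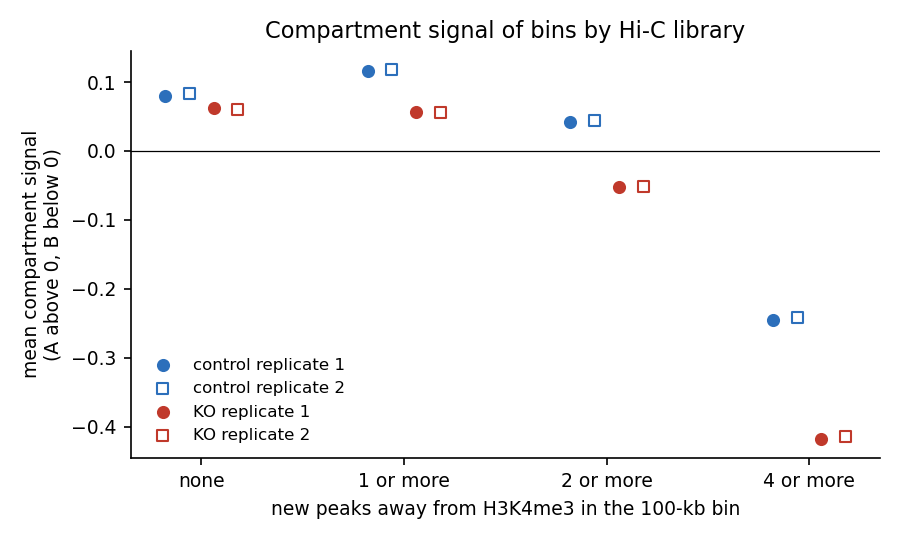
Mean Hi-C compartment signal (vertical, A above and B below 0) in each of the 2 control and 2 KO libraries, for 100-kb bins grouped by the number of new peaks they hold (horizontal; groups of 1, 2 and 4 or more are nested). The gap between genotypes is -0.0204 in bins with none and -0.173 in bins with 4 or more.

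Loss of H3K9me3 and gain of H3K27ac were rarely called at the same CTCF peak in any of the sets away from KO H3K4me3. The rule itself lowers such counts, because H3K27ac often accompanies H3K4me3. CTCF peaks at KO H3K4me3 were not counted here. Of the 1553 members with H3K9me3 in control only, 38 overlapped H3K27ac called in KO only, which was 0.22% (0.16 to 0.30) of all members, against 13 shared peaks (0.16%, 0.092 to 0.27) and 11 control-only peaks (0.11%, 0.060 to 0.19). Of the 38 members, 3 lay in a bin going from B to A, and 2 of the 3 lay within 20 kb of a KO TAD edge. The first was chr5:178570520-178570774 (255 bp), wholly in control H3K9me3, with 28 bp in KO H3K27ac and 172 bp in KO H3K27me3. Its bin rose from -0.28 and -0.36 in control to 1.16 and 1.06 in KO (limma adjusted p 1.1e-08), and the nearest KO edge, 10.6 kb away, had its nearest control edge far off, since the member was 369 kb from any control edge. The second was chr19:37820641-37820860 (220 bp), wholly in control H3K9me3 and in KO H3K27ac, 0.75 kb from KO H3K4me3 and 0.75 kb from a KO edge. Its bin went from -1.12 and -1.28 to 0.037 and 0.089 (limma adjusted p 3.9e-08). Both members thus lay beside edges called only in KO.

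Transcripts of CTCF and of cohesin were examined as the factors that act at such sites. Of 17767 genes tested, 62.8% were called by edgeR at an adjusted p under 0.05, 32.8% higher and 30.0% lower in KO, so a call alone says little about a gene. CTCF itself was at 89.5, 86.6 and 85.0 CPM in control and 95.8, 96.8 and 94.4 CPM in KO, a rise of 0.14 on the log2 scale (SE 0.045, edgeR adjusted p 0.0087) without overlap between genotypes. Without control replicate 3 this call was lost (edgeR adjusted p 0.06; range over the alternatives 0.00071 to 0.06). CTCFL, a testis-specific paralog of CTCF, had 0 or 1 count in every library and was not tested.

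Of the 12 genes of CTCF, CTCFL and cohesin, 11 were tested, of which 2 rose, 6 fell and 3 did not pass; their median log2 fold change was -0.19, against 0.0038 for all genes tested. SMC3, a core ring subunit of cohesin, was at 178, 165 and 163 CPM in control and 97.3, 94.5 and 96.4 CPM in KO. Its log2 fold change was -0.81 (SE 0.045, edgeR adjusted p 3.7e-15), the largest in the list, and its control and KO libraries lay far apart. The other ring subunits SMC1A and RAD21 fell by 0.19 and 0.27 on the log2 scale, and the STAG2 subunit by 0.23. The cohesin release factors WAPL and PDS5B fell by 0.22 and 0.20. MAU2, a partner of the loader NIPBL, rose by 0.27. STAG1, NIPBL and PDS5A were not called, with log2 fold changes of -0.019, -0.086 and -0.069, and the sign for STAG1 turned under scaling by library size only (0.011).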

How the data were processed

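ChIP-seq, Hi-C and RNA-seq of control and SETDB1 KO A549 cells were analysed from deposited tables. The members and gene lists were chosen with earlier results of these data known. The submitters' processing notes name Bowtie2 2.2.3, SAMtools 1.5, Picard, MACS2, STAR 2.6.1c, edgeR 3.30.0 and build hg19, with no role or order; peak calling thresholds, pooling of replicates and the strand setting of the counting are not given in the sources used here. Per the labels' protocols, histone ChIP used MNase digestion and CTCF ChIP sonicated chromatin, so widths of histone and CTCF peaks are not comparable. Peak and TAD lists as deposited by the authors held positions on hg19, with no value per peak. The authors' compartment table held a signed score per 100-kb bin for each Hi-C library, whose scale and orientation are not given in the sources used here; positive bins are called A. The authors deposited raw counts per gene; the RNA kit was stranded, per the labels.

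Overlap meant 1 bp or more, and edges lay on a 20-kb grid. Sets were compared in Python 3.11.15 (numpy 2.4.6, pandas 2.3.3, scipy 1.17.1). Bins were tested with limma 3.58.1 (2 against 2 libraries) and genes with edgeR 4.0.16 (quasi-likelihood test with robust option, TMM scaling and filterByExpr, 3 against 3 libraries), each with Benjamini-Hochberg adjustment at 0.05 over all bins or genes; both fits were tested on simulated data. CPM used TMM-scaled library sizes, and 58642 of 62486 gene IDs had a symbol in the name table. PECAM1 was not matched, and 1 other marker is not reported here. Named regions were the 5 bins with most members (ties by fewer shared peaks, then position), the 5 widest members, the 3 densest and 3 sparsest chromosomes, and members that met all of H3K9me3 in control only, H3K27ac in KO only, a bin from B to A and a KO TAD edge within 20 kb; named genes were SETDB1, CTCF, CTCFL and the cohesin list. Samples were grouped by their labels; the KO H3K4me3 titles lack a digit and were grouped with the help of their description. Libraries of a genotype differed by more than sampling noise (chi-square per degree of freedom 1.66 to 6.70), so none was merged. Replicate numbers were not treated as pairs: deviations of same-numbered RNA-seq libraries correlated at 0.111, 0.0641 and 0.0467. No column of per-sample values was left unmapped (0). Inputs were not used here. Alternatives were other overlap, distance and compartment rules, subsets of chromosomes, other scalings, DESeq2 1.42.0, a replicate block and leaving out each replicate.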

Additional observations from a re-analysis of the deposited data

How the results depend on the processing

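Each peak list and TAD list exists once per genotype, so no alternative gives a replicate error for the shares. The differences between members and shared peaks in control A bins, control H3K9me3, control H3K27me3, KO H3K27ac and KO TAD edges kept their sign, with an interval that leaves out 0, in 53 of 53 recomputations. The shares themselves moved beyond their counting interval as follows; the cause was not tested. Keeping the wider part of the members left 8429 of them by construction, with a median width of 309 bp, 57.1% in control A bins, 17.8% near a KO edge, 19.3% in control H3K9me3 and 4.08% in KO H3K27ac. A reciprocal overlap of 50% for sharing gave a median width of 260 bp and 55.6% in control A bins. No KO H3K4me3 within 1 kb gave 53.8% in A bins and 3.10% in KO H3K27ac, and no H3K4me3 of either genotype gave 53.9% and 3.04%. Without chromosomes 2 and 12, 55.5% lay in control A bins, and by the sign in KO 51.8%. Without the 7 chromosomes with under 1 control-only peak per Mb, an alternative chosen after seeing the data, 52.3% lay in control A bins, 15.4% near a KO edge, 19.5% in control H3K9me3 and 15.6% in control H3K27me3. By midpoint the shares were 16.9% in control H3K9me3, 13.3% in control H3K27me3 and 2.41% in KO H3K27ac, and with 50% of the peak inside the mark 16.9%, 13.3% and 2.42%. Edge distances of 10 and 40 kb gave 8.47% and 28.3%, and control edges 15.8%.

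Bins with 2 or more members gave 2206 limma calls and a mean difference of -0.0946, and columns scaled to equal SD a mean difference of -0.0663 (all bins -0.0421). With each Hi-C replicate left out in turn there were 5150 to 6325 calls and mean differences of -0.0627 to -0.0601, with a lone library assumed to vary like the others. Leaving out each RNA-seq replicate gave 10174 to 11085 genes and 8 to 9 called genes of SETDB1, CTCF and cohesin. The replicate block gave 6607 bins, 11923 genes and 9 listed genes; same-numbered Hi-C deviations correlated at -0.00185, so the numbers pair nothing here. The sign of STAG1 turned to 0.011 under library size only and to 0.019 without an expression filter, and NIPBL and PDS5A were called as lower under upper quartile scaling (-0.12 and -0.10). DESeq2 called 9551 genes.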
